A study of Mus musculus with 18 samples.

Results

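Interferons are secreted proteins that put cells into an antimicrobial state by switching on a large set of interferon-stimulated genes. The set described here held 43 such genes, found by symbol among the 46078 genes of both deposited count tables. By the rule that defined it, 13 members were GTPases named Gbp, Irgm, Iigp1, Igtp or Tgtp, and the other 30 were called type I style genes. Gbp6 had 2 rows, of which the one with 8603 counts over all libraries was used and the one with 9 counts was not. All 43 members passed the filter on low counts in every comparison.

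Bulk RNA sequencing had been done on regulatory T cells (Tregs), a CD4 lineage set by the factor Foxp3 that holds immune responses in check. All cells were sorted from male Foxp3(DTR/GFP) mice aged 10 weeks, in which cells that express Foxp3 carry the diphtheria toxin receptor and green fluorescent protein. The groups were 6 libraries of spleen Tregs from uninjured mice and 3 libraries each from a cranial bone defect, a volumetric muscle loss defect of the quadriceps, a full-thickness punch wound of the skin and an infarcted heart, the injured tissues taken 7 days after injury. Each injured-tissue library was pooled from 3 mice, while pooling is not stated for spleen, and the labels do not say that libraries came from separate sorts, so that p-values measure the spread between these libraries only. Uninjured tissues and spleens of injured mice were not analysed here, so that effects of tissue and of injury cannot be told apart, nor, in bulk RNA, can fewer cells of a type be told from less RNA per cell. Library names came in 2 styles, here called Endo (spleen replicates 1 to 3, skin, heart replicate 1) and Tregs (all others), and fold changes were adjusted for style. In the first of the 2 count tables only spleen carried both styles, so that bone and muscle are in effect compared with spleen replicates 4 to 6, and skin with spleen replicates 1 to 3, while in the heart table heart carried both styles too. Levels are given as CPM (each library's counts over its TMM-scaled total) without adjustment for style, and the ratio of 2 levels need not equal the fitted fold.

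Type I interferons (alpha and beta) bind the receptor chains Ifnar1 and Ifnar2 and act mainly through a complex with Stat2 and Irf9 that binds the interferon-stimulated response element (ISRE). Interferon gamma binds Ifngr1 and Ifngr2 and acts through the kinases Jak1 and Jak2 on genes that carry the gamma-activated site (GAS). Many genes answer to both. The GTPases fall into guanylate-binding proteins (Gbp) and immunity-related GTPases (Iigp1, Irgm1, Irgm2, Igtp, Tgtp1, Tgtp2), which gather on the membranes around intracellular microbes, where the Irgm proteins and Igtp regulate the others. Ifi47 is also an immunity-related GTPase, but the rule counts it with the type I style genes.

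The start regions of the members show which of these elements lie before each gene. Of the 43 members 32 had an entry in the RefSeq promoter table (GRCm38.p6), which holds 250 bases before to 50 bases after a gene's start. The ISRE core (GAAA, any 2 bases, then GAAA again), searched on both strands, was in 3.44% of all 32851 windows, and the GAS TTCNNNGAA, which reads the same on both strands, in 8.30%. Among members the ISRE core was in 9 of 9 GTPases and 12 of 23 type I style genes, and the GAS in 6 of 9 and 5 of 23. A GAS that starts 11 bases before an ISRE core on the same strand, with 2 bases between them, was found for 5 gene symbols in the whole table, and 4 of these were members: Tgtp1, Tgtp2, Igtp and Irgm2. The other was Gm12185, a gene model that shares exon bases with Tgtp1. The search set beforehand named the 2 elements but no spacing between them. The spacing counted is that of these members' own windows, so that 4 of 5 is no test. The 4 windows are also much alike outside the elements and are not taken as separate occurrences. A match is a description of letters and not a mapped binding site. The windows below are those of genes on which the results turn, each read 5′ to 3′ on the gene's strand, with matches in capitals (for these 4 the GAS comes first).
Tgtp1, chr11:48992304-48992344, minus strand: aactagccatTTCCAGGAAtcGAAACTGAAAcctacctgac
Tgtp2, chr11:49064263-49064303, minus strand: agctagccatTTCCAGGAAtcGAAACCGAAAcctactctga
Igtp, chr11:58199501-58199541, plus strand: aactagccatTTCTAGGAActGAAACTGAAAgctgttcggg
Irgm2, chr11:58214892-58214932, plus strand: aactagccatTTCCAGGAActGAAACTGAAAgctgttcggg
In the next windows only the ISRE core matched, on either strand, so that capitals can read TTTC, any 2 bases, TTTC, and neighbouring matches can overlap.
Irgm1, chr11:48871425-48871460, minus strand: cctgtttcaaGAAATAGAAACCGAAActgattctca
Gbp2, chr3:142620594-142620623, plus strand: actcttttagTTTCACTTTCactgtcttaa
Gbp3, chr3:142559989-142560024, plus strand: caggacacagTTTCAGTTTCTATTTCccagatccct
Ifit1, chr19:34640775-34640823, plus strand: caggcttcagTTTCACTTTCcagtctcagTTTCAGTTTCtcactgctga
Oas3, chr5:120777715-120777744, minus strand: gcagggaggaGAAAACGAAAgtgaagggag
Rsad2, chr12:26456553-26456582, minus strand: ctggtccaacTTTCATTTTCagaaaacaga
Isg15, chr4:156200865-156200906, minus strand: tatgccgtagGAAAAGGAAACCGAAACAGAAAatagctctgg

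Total counts ran from 5970346 to 22635760 per library, and spleen libraries of the Endo style were the shallowest. Ribosomal and 7SK RNA took 7.11% to 11.3% of counts in spleen and 3.31% to 7.37% in the injured tissues. Treg markers were present in all libraries: Foxp3 stood at 343 to 444 CPM in spleen and 587 to 836 CPM in the injured tissues. The sum of 10 B cell markers was 50.6 to 147 CPM in spleen, 60.3 to 98.2 in bone, 20.1 to 65.9 in heart, 12.2 to 16.3 in skin and 10.8 to 14.99 in muscle, with Ms4a1 at 0 in muscle. Of the other lists, 10 macrophage markers summed to at most 68.9 CPM (heart) and 10 dendritic cell markers to at most 121 CPM (spleen), while 6 erythroid markers summed to 2.91 to 31.8 CPM in spleen and at most 4.41 elsewhere. The sums of 8 neutrophil markers reached 29.98 CPM (heart), of 8 markers of CD8 T and NK cells 47.7 (spleen), of 9 of stroma and endothelium 175 (muscle) and of 12 of muscle, skin, bone and heart parenchyma 56.6 (muscle). The part of these cells in the results below was not tested.

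In skin 25 of 43 members were called lower than in spleen and 1 higher, while 8 were lower and 0 higher in bone, 7 and 5 in muscle, and 13 and 2 in heart. GTPases were among the lower genes in all 4 tissues. Against spleen, 10 of 13 GTPases were lower and 1, Gbp3, was higher in skin, and 15 of 30 type I style genes were lower and 0 higher, where 27.8% of all 15617 genes tested passed (15% higher and 12.8% lower). In bone 6 GTPases and 2 type I style genes were lower and 0 of either class were higher, against 14.8% of all genes (8.48% higher, 6.32% lower). Muscle had 4 GTPases lower and 1 higher, with 3 type I style genes lower and 4 higher, against 25.5% of all genes (14.2% higher, 11.3% lower). Heart had 7 GTPases lower and 1 higher, with 6 type I style genes lower and 1 higher, against 20.3% of 15025 genes (11.8% higher, 8.46% lower).

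**Figure D1:**
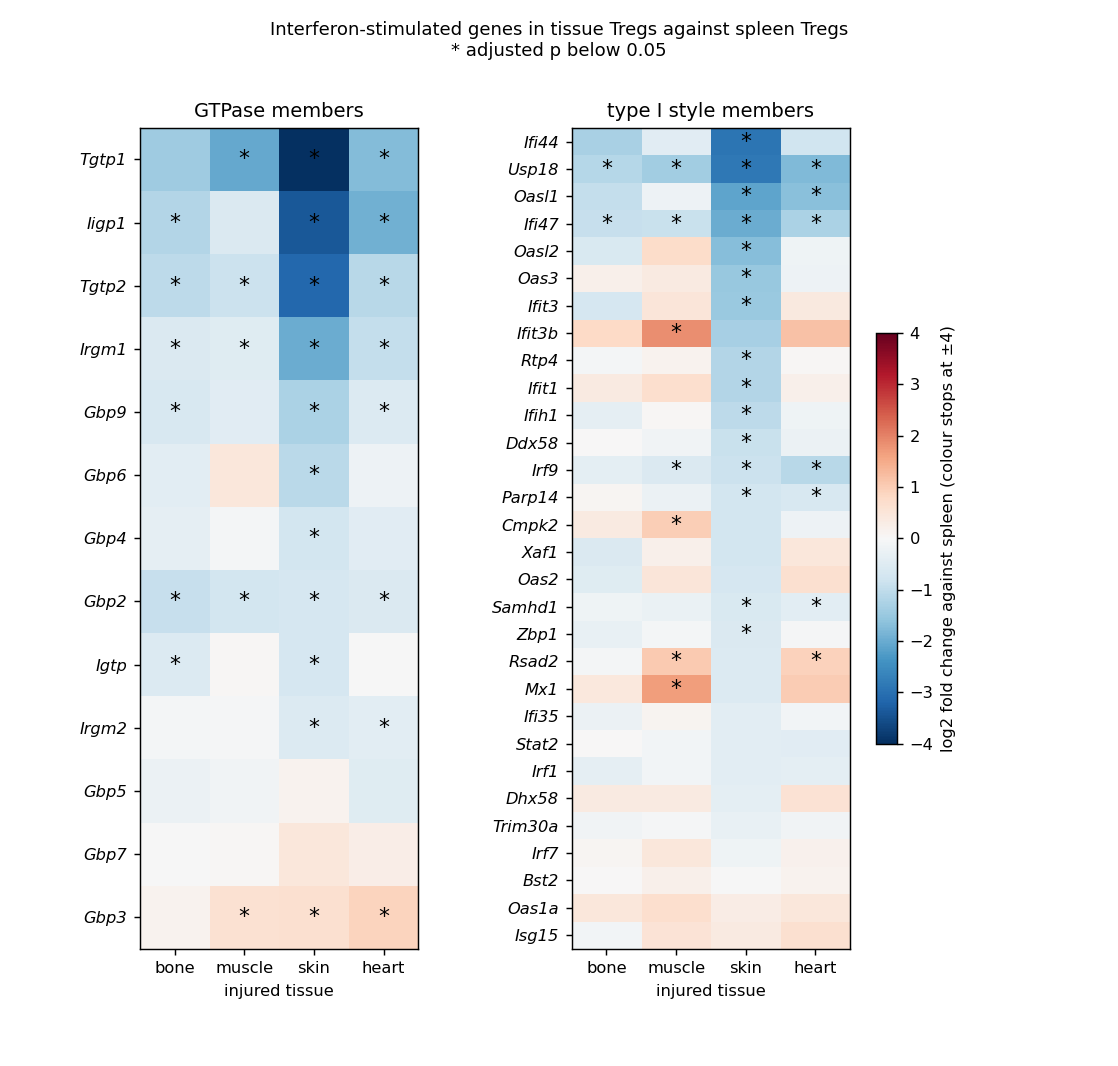
Log2 fold change of each member in Tregs of 4 injured tissues (columns) against spleen Tregs, adjusted for naming style, with blue for lower, red for higher and an asterisk where the adjusted p was below 0.05. Skin has the darkest blue column in both classes, Gbp3 is the GTPase row with red asterisks, and Mx1, Rsad2, Cmpk2 and Ifit3b are red with an asterisk in muscle.

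The median log2 fold change of the GTPases was -0.54 in bone, -0.50 in heart, -0.15 in muscle and -0.73 in skin. For the type I style genes it was -0.11, -0.11, 0.16 and -0.73 in the same order, and over all genes 0.01, -0.03, -0.01 and -0.07. The 2 classes thus had the same median in skin and lay apart in the other tissues, with the GTPases the lower. Whether the classes differed was not tested, as members of a class share regulators and are not replicates. With Ifi47 counted among the GTPases and Irf1 in neither class, the GTPases called (in either direction, in bone, muscle, skin, then heart) were 7, 6, 12 and 9 of 14, and the type I style genes 1, 6, 14 and 6. Across tissues, 5 members were lower in all 4 (Tgtp2, Irgm1, Gbp2, Ifi47 and Usp18) and 4 in 3 (Tgtp1, Iigp1, Gbp9 and Irf9), 11 passed in skin alone, and 13 passed in none. All 4 comparisons were fitted with the same spleen libraries. With the style term, bone and muscle in effect share replicates 4 to 6, while skin rests on replicates 1 to 3.

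Leaving out 1 library moved some of these counts by over 1.5 times. In bone the GTPases called fell to 3 without bone replicate b and the type I style genes to 1 without bone replicate 1 or b. In muscle the type I style genes fell from 7 to 3 without spleen replicate 4 and to 4 without spleen replicate 5 or muscle replicate 1, and the GTPases from 5 to 3 without spleen replicate 6 or muscle replicate 2. In heart the type I style genes fell from 7 to 3 without heart replicate 2 and to 4 without spleen replicate 4 or 5, and the GTPases from 8 to 5 without heart replicate 2 or spleen replicate 5. In skin the counts stayed at 11 to 17 for the type I style genes and 9 to 11 for the GTPases with any library left out.

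Tgtp2, a GTPase of the immunity-related family, was lower in every injured tissue and least abundant in skin. Its level in spleen was 61.5, 69.2 and 77.1 CPM, given here and for all genes as the lowest, median and highest of the 6 libraries. Single libraries held 28.6, 32 and 40.1 CPM in bone, 20.7, 36 and 44.6 in heart, 5.72, 9.94 and 8.42 in skin and 57.1, 24.4 and 34.4 in muscle. No library of an injured tissue reached the spleen range, and all skin libraries lay below all others. Tgtp2 was 8.88-fold lower (log2 fold change -3.15, SE 0.26, adjusted p = 3.96e-09) in skin, 2.16-fold lower (log2 fold change -1.11, SE 0.20, adjusted p = 0.00145) in heart, 2.08-fold lower (log2 fold change -1.05, SE 0.23, adjusted p = 0.0026) in bone and 1.80-fold lower (log2 fold change -0.85, SE 0.23, adjusted p = 0.00875) in muscle. The muscle call ended without muscle replicate 2 (adjusted p = 0.0593).

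Tgtp1, its near-identical neighbour, held 20.8, 29.5 and 41.8 CPM in spleen and 0, 2.03 and 0.383 CPM in the skin libraries, which corresponds to 0, 18 and 3 counts. Bone had 6.50, 12.6 and 17.6 CPM, muscle 9.52, 5.36 and 8.94 CPM and heart 6.03, 12.3 and 12.1 CPM. Spleen did not overlap any injured tissue. The fitted difference was 39.9-fold lower (log2 fold change -5.32, SE 0.69, adjusted p = 2.96e-05) in skin, though a fold set by so few counts is imprecise, 4.10-fold lower (log2 fold change -2.04, SE 0.52, adjusted p = 0.00994) in muscle and 3.30-fold lower (log2 fold change -1.72, SE 0.28, adjusted p = 0.000595) in heart. In bone Tgtp1 did not pass (log2 fold change -1.42, SE 0.51, adjusted p = 0.0765). Of the 50-base stretches of its annotated transcripts 81.2% also occur in another gene, and for Tgtp2 86.6%, so that the split of reads between them is uncertain. Their summed level does not depend on that split, provided each shared read was counted once: it was 85.7 to 119 CPM in spleen, 35.1 to 57.7 in bone, 26.7 to 56.8 in heart, 29.8 to 66.6 in muscle and 5.72 to 11.97 in skin.

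Iigp1, an effector GTPase that coats and breaks the vacuoles of intracellular parasites, held 47.5, 61.2 and 97.2 CPM in spleen. The skin libraries held 6.64, 7.12 and 5.61 CPM, those of heart 11.3, 21.7 and 21.7, of bone 30.02, 27.5 and 28.6 and of muscle 69.6, 28.1 and 33. Skin and heart lay far below the spleen range and bone below it, while muscle replicate 1 lay within it. Iigp1 was 10.5-fold lower (log2 fold change -3.39, SE 0.34, adjusted p = 4.65e-07) in skin, 3.76-fold lower (log2 fold change -1.91, SE 0.29, adjusted p = 0.000409) in heart and 2.27-fold lower (log2 fold change -1.19, SE 0.30, adjusted p = 0.01) in bone, and these 3 calls held under every alternative tried. In muscle it did not pass (log2 fold change -0.59, SE 0.29, adjusted p = 0.16).

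Irgm1, a regulator of the effector GTPases that also acts in autophagy, held 80.2, 108 and 112 CPM in spleen, 62.4, 57 and 76.2 in bone, 36.3, 70.5 and 57.6 in heart, 24.5, 30.5 and 29.1 in skin and 87.7, 55.5 and 66.1 in muscle. Skin was again lowest, with heart replicate 1 close to it, and muscle replicate 1 alone overlapped spleen. The differences were 3.95-fold lower (log2 fold change -1.98, SE 0.18, adjusted p = 8.12e-09) in skin, 1.93-fold lower (log2 fold change -0.95, SE 0.20, adjusted p = 0.00449) in heart, 1.51-fold lower (log2 fold change -0.59, SE 0.17, adjusted p = 0.0158) in bone and 1.41-fold lower (log2 fold change -0.49, SE 0.17, adjusted p = 0.0309) in muscle. The bone call ended without spleen replicate 5 or 6 or bone replicate 1 or b (adjusted p at most 0.114), and that in muscle without spleen replicate 5 or 6 or muscle replicate 2 or 3, or with same-style spleen libraries only (up to 0.167). Irgm2, a regulator of the same kind, was 1.45-fold lower (log2 fold change -0.54, SE 0.16, adjusted p = 0.0114) in skin and 1.35-fold lower (log2 fold change -0.43, SE 0.14, adjusted p = 0.0441) in heart, and the heart call ended on leaving out any single library of the heart comparison (adjusted p up to 0.276), the skin call without skin replicate 1 or 3, without spleen replicates 1 and 2 together, or without the style term. Its spleen libraries stood apart by style, at 98.8, 103 and 113 CPM in replicates 1 to 3 and 73, 77.7 and 72.3 in replicates 4 to 6. Skin, at 66.5, 83.1 and 70.6 CPM, overlapped the latter.

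Igtp, the third regulator, was the most abundant GTPase per kilobase of exon in spleen (95.6 CPM per kilobase, where Irgm1 and the others lay below and Gbp2 at 41.7). It held 156, 194 and 232 CPM in spleen, 131, 118 and 129.8 in bone, 163, 214 and 199 in heart, 136, 140.2 and 122 in skin and 228, 165 and 168 in muscle. Bone and skin lay below the spleen range, while muscle and heart lay within it. Igtp was 1.58-fold lower (log2 fold change -0.66, SE 0.15, adjusted p = 0.00157) in skin and 1.45-fold lower (log2 fold change -0.54, SE 0.15, adjusted p = 0.0149) in bone, where the call ended without spleen replicate 5 or bone replicate b (adjusted p up to 0.140). In muscle and heart its log2 fold changes were 0.03 and -0.01 (adjusted p = 0.905 and 0.976). Igtp and Irgm2 share 162 exon bases on the same strand, so that reads there may be counted for either or neither. The promoter windows above place Igtp and Irgm2 with Tgtp1 and Tgtp2 by the arrangement of the 2 elements, and their skin folds were 1.58 and 1.45 against 39.9 and 8.88.

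**Figure D2:**
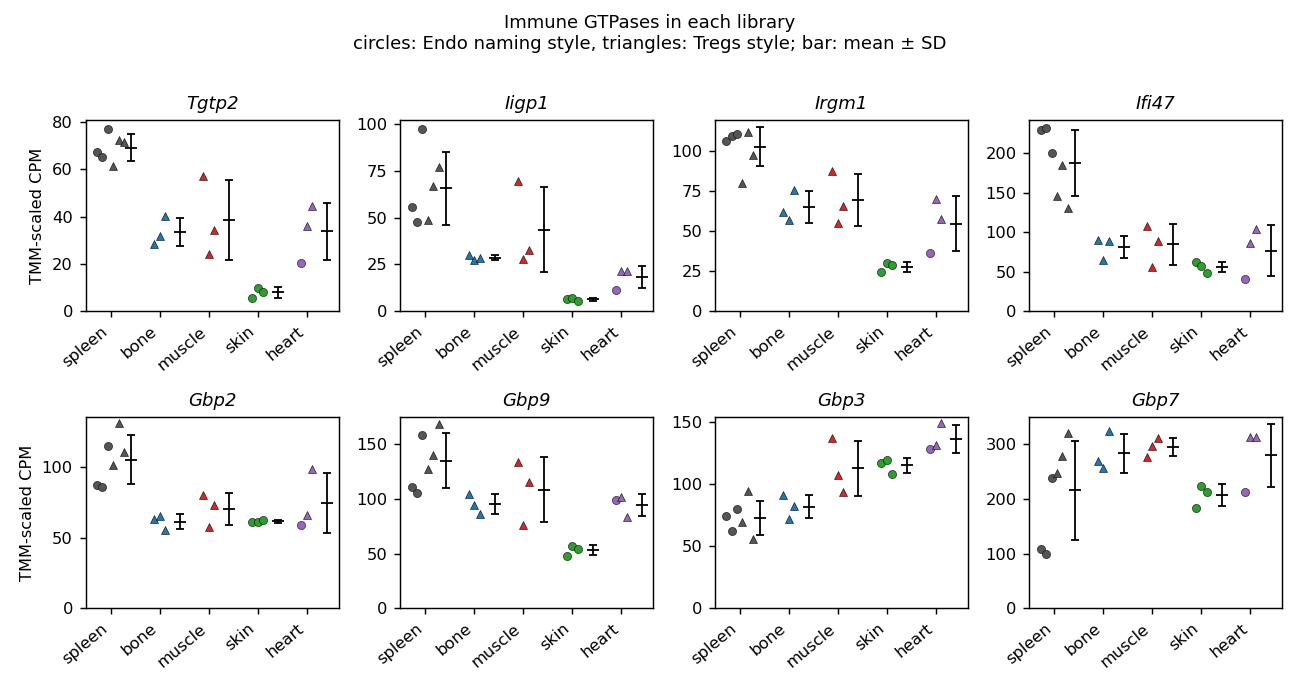
Level of 8 GTPases, Ifi47 among them, in each library (TMM-scaled CPM, axes from 0), by group, with circles for the Endo and triangles for the Tregs naming style and the mean ± SD beside the points. All skin points of Tgtp2, Iigp1, Irgm1 and Gbp9 lie below all spleen points, Gbp3 runs the other way, and the spleen points of Gbp7 and of Ifi47 stand apart by style.

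The guanylate-binding proteins did not move as 1 group. Gbp2, which helps open pathogen vacuoles, held 85.4, 106 and 131 CPM in spleen, 63.4, 65 and 55.4 in bone, 58.9, 66 and 98.3 in heart, 61.2, 60.7 and 62.3 in skin and 79.8, 57.3 and 73.2 in muscle. Heart replicate 3 alone lay inside the spleen range. Gbp2 was 1.89-fold lower (log2 fold change -0.92, SE 0.15, adjusted p = 0.000141) in bone, 1.65-fold lower (log2 fold change -0.72, SE 0.15, adjusted p = 0.00105) in muscle, 1.58-fold lower (log2 fold change -0.66, SE 0.16, adjusted p = 0.00224) in skin and 1.48-fold lower (log2 fold change -0.57, SE 0.17, adjusted p = 0.031) in heart, where the call ended under 5 alternatives, among them those without spleen replicate 5, heart replicate 1 or 2 or the style term, while those of the other tissues held under every alternative.

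Gbp3 was the only member of the GTPase class called higher than in spleen, in muscle, skin and heart. It held 55.9, 71.9 and 94.7 CPM in spleen, 129, 132 and 149 in heart, 117, 119.6 and 109 in skin and 137, 107 and 93.6 in muscle, against 91.3, 72.3 and 82.5 in bone. Skin and heart lay above the spleen range, muscle replicate 3 just within it, and bone inside it. Gbp3 was 1.85-fold higher (log2 fold change 0.89, SE 0.16, adjusted p = 0.00156) in heart, 1.57-fold higher (log2 fold change 0.65, SE 0.18, adjusted p = 0.00733) in skin and 1.51-fold higher (log2 fold change 0.60, SE 0.17, adjusted p = 0.0131) in muscle. The muscle call ended without spleen replicate 6 or muscle replicate 1 (adjusted p up to 0.0836), and the skin call without spleen replicates 1 and 2 together, the 2 richest in ribosomal RNA (0.158).

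Gbp9 held 105, 133 and 168 CPM in spleen, 104, 94.2 and 86 in bone, 98.3, 101 and 82.8 in heart, 47.9, 57 and 54.1 in skin and 134, 75.6 and 115 in muscle. It was 2.39-fold lower (log2 fold change -1.26, SE 0.19, adjusted p = 1.79e-05) in skin, and was also lower in bone (1.55-fold) and heart (1.46-fold), of which the call in bone ended without spleen replicate 6 or bone replicate b or c and that in heart without spleen replicate 3, 4, 5 or 6 or heart replicate 2 or 3. Gbp4 held 129.9, 191 and 234 CPM in spleen and 105, 109.9 and 97.9 in skin, and passed in skin alone, where it was 1.66-fold lower (log2 fold change -0.73, SE 0.19, adjusted p = 0.00478). Gbp6 also passed in skin alone (2.09-fold lower, adjusted p = 0.0138), a call that ended without spleen replicate 3 or skin replicate 1, and 70.7% of its transcript stretches are shared, mostly with the gene model Gm43302. Gbp5 and Gbp7 passed in no tissue. For Gbp7 the 2 naming styles stood apart within spleen: 109.6, 100.3 and 238 CPM in replicates 1 to 3 against 249, 279 and 321 CPM in replicates 4 to 6, and it was the 1 member called between the styles, 1.88-fold higher (log2 fold change 0.91, SE 0.24, adjusted p = 0.0348) in the Tregs style, against 4.74% of all genes (3.09% higher). Replicate 3 lay close to the Tregs style, and that call was lost without spleen replicate 1, 2, 5 or 6, bone replicate 1 or muscle replicate 1 or 2. Leaving out spleen replicate 3 gave 3 members called, while calls over all genes rose from 741 to 2016.

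Among the type I style genes, Usp18 and Ifi47 were lower in all 4 tissues. Usp18 removes the ubiquitin-like protein Isg15 from its targets and blocks signalling at Ifnar2. It held 19.9, 26.7 and 35.2 CPM in spleen, 10.5, 9.01 and 13.8 in bone, 3.02, 9.44 and 13.1 in heart, 4.70, 5.65 and 2.42 in skin and 11.4, 4.75 and 11.8 in muscle, with no overlap between spleen and any tissue. It was 7.26-fold lower (log2 fold change -2.86, SE 0.34, adjusted p = 8.87e-07) in skin, 3.38-fold lower (log2 fold change -1.76, SE 0.39, adjusted p = 0.0062) in heart, 2.64-fold lower (log2 fold change -1.40, SE 0.32, adjusted p = 0.00192) in muscle and 2.21-fold lower (log2 fold change -1.15, SE 0.31, adjusted p = 0.0129) in bone. The bone call ended without spleen replicate 6 or bone replicate 1 or b (adjusted p up to 0.0714). Ifi47 held 131, 193 and 232 CPM in spleen, 90.3, 65.6 and 89.6 in bone, 41.1, 86.1 and 104 in heart, 62.5, 56.9 and 49.1 in skin and 108, 56.5 and 89 in muscle, again with every tissue below spleen. It was 3.98-fold lower (log2 fold change -1.99, SE 0.19, adjusted p = 4.26e-08) in skin, and 2.41-fold lower in heart, 1.91-fold in bone and 1.85-fold in muscle, and all 4 calls held under every alternative.

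The oligoadenylate synthetases and their relatives, which sense double-stranded RNA or restrict viruses, had 3 of 5 members called lower in skin. Over all genes 12.8% were called lower there. Oas3 held 22.1, 34.4 and 43.7 CPM in spleen, 27, 34.4 and 40.1 in bone, 21, 24.7 and 40.4 in heart, 9.87, 18.4 and 12.9 in skin and 38.8, 31.1 and 43.4 in muscle. All skin libraries lay below all spleen libraries, and the other tissues overlapped spleen. Oas3 was 2.84-fold lower (log2 fold change -1.50, SE 0.25, adjusted p = 5.55e-05) in skin. Oasl1 held 2.91, 4.54 and 8.03 CPM in spleen, 0.554, 0.904 and 1.66 in skin and 1.89, 1.02 and 1.65 in heart, and was 4.34-fold lower in skin and 3.21-fold lower in heart (adjusted p = 0.0176 and 0.024). These calls ended without spleen replicate 2 or skin replicate 1 or 2, and without spleen replicate 2 or 4 or heart replicate 2 or 3. Oasl2 also fell in skin (3.22-fold, adjusted p = 0.048), a call that ended in 13 of 26 alternatives, 10 of them with 1 library left out. Oas1a and Oas2 passed in no tissue, and 57.6% of the transcript stretches of Oas1a are shared with Oas1g or Oas1b.

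Of 4 sensors of viral nucleic acid, 3 were called lower in skin and 0 in the other tissues. Over all genes 12.8% were lower in skin, 6.32% in bone, 11.3% in muscle and 8.46% in heart. Ddx58 (RIG-I), a sensor of viral RNA, held 95.6, 109.6 and 124 CPM in spleen and 52.3, 64.3 and 62.9 CPM in skin, and was 1.86-fold lower (log2 fold change -0.90, SE 0.16, adjusted p = 0.000125). Ifih1 (MDA5), its relative, was 2.07-fold lower (log2 fold change -1.05, SE 0.22, adjusted p = 0.000739) at 46.1, 57.5 and 76.1 CPM in spleen and 19.9, 30.3 and 28.1 in skin. Zbp1, a sensor that starts necroptosis, was 1.50-fold lower (adjusted p = 0.0141), until spleen replicate 3 or skin replicate 1 or 3 was left out. In both Ddx58 and Ifih1 the skin libraries lay below all spleen libraries, and bone, muscle and heart overlapped spleen. Dhx58, the third of that family, passed in no tissue.

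Ifit1, which binds viral RNA that lacks the host cap marks, held 28.3, 33.3 and 40.5 CPM in spleen, 45.7, 40.4 and 39.97 in bone, 19.3, 51.7 and 56.6 in heart, 9.23, 21.6 and 18 in skin and 65, 33 and 61.4 in muscle. Skin lay below spleen, and heart and muscle libraries spread from below or within the spleen range to above it. Ifit1 was 2.23-fold lower (log2 fold change -1.16, SE 0.27, adjusted p = 0.00206) in skin. Ifit3 was 2.81-fold lower in skin (adjusted p = 0.0176), a call that ended without spleen replicate 1 or 2 or skin replicate 1 or 3, and shares 51.2% of its transcript stretches with Ifit3b, so that the 2 genes are uncertain apart. Their summed level was 5.55 to 27.9 CPM in spleen, 16.7 to 44.2 in muscle and 4.24 to 8.36 in skin. Ifi44, scarcely detected, held 1.73, 3.66 and 7.59 CPM in spleen and 0, 0.791 and 0.383 in skin, where it was 7.65-fold lower (log2 fold change -2.94, SE 0.79, adjusted p = 0.00697). Rtp4 fell 2.25-fold in skin (adjusted p = 0.011), until skin replicate 1 or 3, or spleen replicates 1 and 2 together, were left out.

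In muscle 4 of 30 type I style genes were higher than in spleen, a count near the 14.2% of all genes called higher there. Mx1, a dynamin-like GTPase that blocks influenza viruses, held 3.29, 5.20 and 11.6 CPM in spleen, 33.9, 12 and 25.3 in muscle, 7.54, 20.8 and 16.5 in heart, 12, 12.4 and 5.40 in bone and 2.21, 5.76 and 4.46 in skin. All muscle libraries lay above spleen, replicate 2 by the least. Mx1 was 3.18-fold higher (log2 fold change 1.67, SE 0.49, adjusted p = 0.016) in muscle, and the call ended without spleen replicate 4 or 6 or muscle replicate 1 (adjusted p up to 0.0724). Rsad2 (viperin), which makes a chain-terminating nucleotide, and its genomic neighbour Cmpk2, which supplies the nucleotide it uses, were also higher. Rsad2 held 4.80, 10.8 and 15.4 CPM in spleen, 34.4, 17.1 and 27.4 in muscle, 16.5, 24.3 and 20.1 in heart and 4.15, 5.54 and 6.50 in skin. It was 2.06-fold higher (log2 fold change 1.04, SE 0.33, adjusted p = 0.0243) in muscle and 1.88-fold higher (log2 fold change 0.91, SE 0.29, adjusted p = 0.0376) in heart, and either call ended on leaving out single libraries (spleen replicate 4 or 5 or muscle replicate 1 or 3, and spleen replicate 1, 3, 4 or 5 or heart replicate 1 or 2). Cmpk2 and Ifit3b were 1.96-fold and 3.59-fold higher in muscle (adjusted p = 0.0387 and 0.0413), and each call ended in 9 of 26 alternatives, among them the fits on same-style spleen libraries alone and, for single libraries, those without spleen replicate 4 or 5 or muscle replicate 3, and for Cmpk2 also muscle replicate 1.

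**Figure D3:**
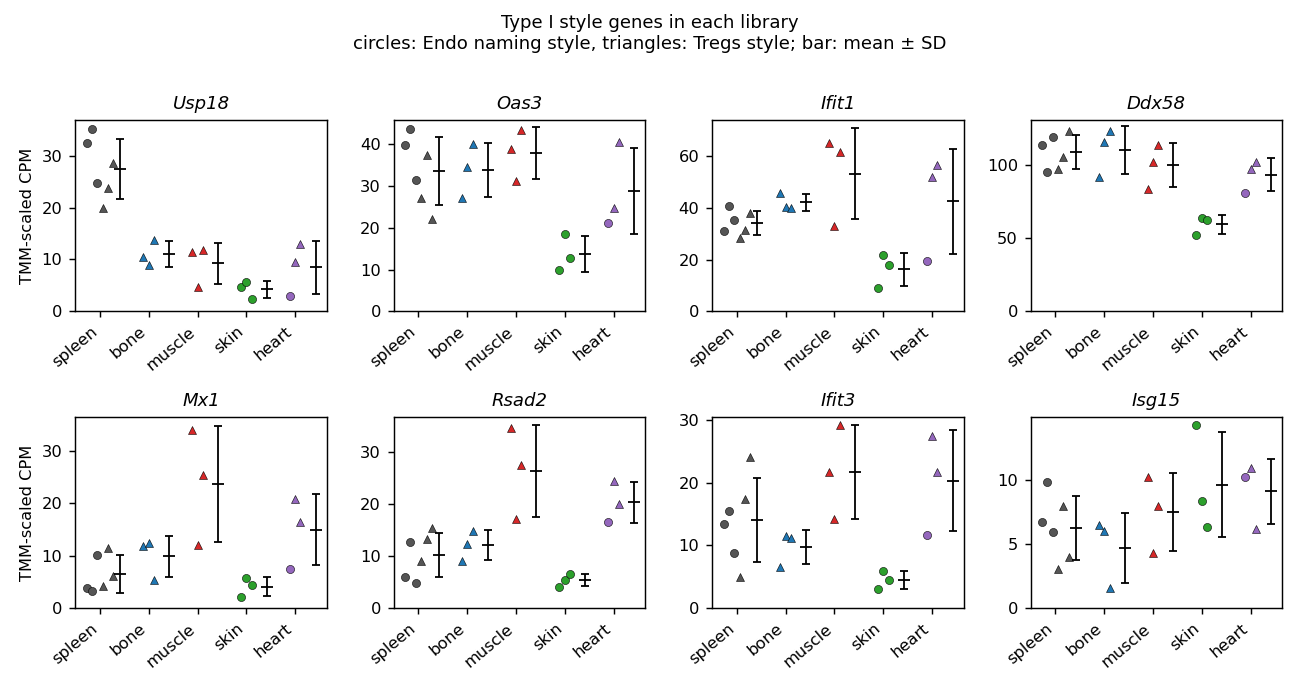
Level of 8 type I style genes in each library (TMM-scaled CPM, axes from 0), drawn as circles for the Endo and triangles for the Tregs naming style, with mean ± SD. Usp18 is below spleen in every tissue, Oas3, Ifit1 and Ddx58 are low in skin, Mx1 and Rsad2 are above spleen in muscle with replicate 2 lowest of the 3, and Isg15 overlaps spleen in all tissues.

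Of the transcription factors of the response, 1 of 4 was called, in muscle, skin and heart. That count is near the share of all genes called, which was 25.5% in muscle, 27.8% in skin and 20.3% in heart. Irf9, the DNA-binding part of the type I complex, held 102, 118 and 139 CPM in spleen, 55.3, 56.8 and 52.7 in heart, 76.1, 70.8 and 57.4 in skin, 98.3, 59.5 and 79.7 in muscle and 85.5, 93 and 91.6 in bone. Every injured-tissue library lay below the spleen range. Irf9 was 2.16-fold lower (log2 fold change -1.11, SE 0.15, adjusted p = 0.000124) in heart, 1.80-fold lower (log2 fold change -0.85, SE 0.17, adjusted p = 0.000463) in skin and 1.50-fold lower (log2 fold change -0.58, SE 0.17, adjusted p = 0.0115) in muscle. The muscle call ended without spleen replicate 6 or muscle replicate 2, and the skin call without spleen replicates 1 and 2 together (adjusted p = 0.0699). In bone it did not pass (log2 fold change -0.40, SE 0.16, adjusted p = 0.115). Its partner Stat2, the gamma-induced factor Irf1 and the type I amplifier Irf7 passed in no tissue. Irf1 held 205, 238 and 317 CPM in spleen and 208, 151 and 161 in skin, with overlap.

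The most abundant type I style genes per kilobase in spleen were Samhd1, Ifi47 and Irf1 (107, 75.7 and 64.0 CPM per kilobase). Samhd1, which degrades nucleotides needed by viruses, held 879, 996 and 1027 CPM in spleen, 638, 667 and 585 in skin and 689, 749 and 790.1 in heart, and was 1.53-fold lower (log2 fold change -0.61, SE 0.12, adjusted p = 0.00054) in skin and 1.35-fold lower (log2 fold change -0.43, SE 0.13, adjusted p = 0.0325) in heart. The heart call ended without spleen replicate 1, 4, 5 or 6 or heart replicate 1 or 2. Parp14, an ADP-ribosyltransferase, held 215, 290.1 and 404 CPM in spleen, 174, 178 and 164 in skin and 167, 212 and 205 in heart. It was 1.68-fold lower in skin and 1.56-fold lower in heart (adjusted p = 0.00294 and 0.0341), and the heart call ended without spleen replicate 5 or 6 or any heart library. Trim30a, Isg15 (the ubiquitin-like modifier), Bst2 (tetherin, which holds budding viruses), Ifi35 and Xaf1 passed in no tissue against spleen. Isg15 held 3.08, 6.36 and 9.87 CPM in spleen and 14.3, 8.36 and 6.38 in skin.

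Libraries of 1 group differed in the level of the members as a whole. Muscle replicate 2 was the lowest of the 3 muscle libraries for 28 of 30 type I style genes and 10 of 13 GTPases, against 31.2% of all genes tested, and muscle replicate 1 was the highest for 21 and 12, against 38.3%. Heart replicate 1, the heart library of the Endo style, was the lowest for 22 of 30 and 11 of 13, against 33.7% of all genes. Skin replicate 2 was the highest for 22 and 10, against 31.0%. As a summary for each library, the median over members of the log2 ratio to the spleen mean (with 0.5 CPM added) was 0.44, -0.23 and 0.28 for type I style genes in muscle replicates 1 to 3. For GTPases it was 0.09, -0.41 and -0.23. In skin it was -1.10, -0.55 and -0.82 for type I style genes and -0.83, -0.78 and -0.93 for GTPases, all below the lowest spleen library (-0.22 and -0.29). In bone the GTPase medians (-0.51 to -0.37) lay below spleen, while those of type I style genes (-0.27 to -0.03) overlapped it, and the same was so in heart (-0.62 to -0.41 and -0.27 to 0.02).

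**Figure D4:**
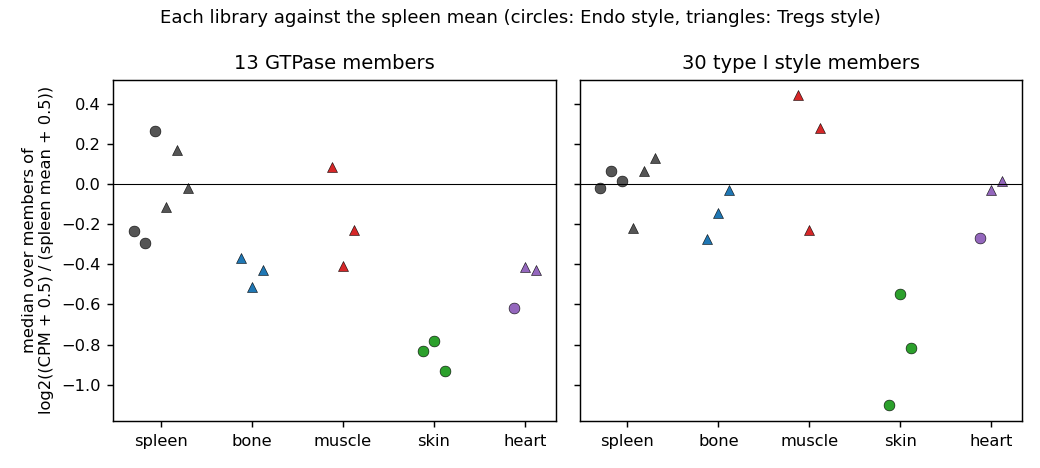
Median over the members of a class of the log2 ratio of each library's CPM to the spleen mean, 1 point for each library, with circles for the Endo and triangles for the Tregs naming style. Skin libraries lie lowest in both panels, bone and heart lie below spleen for the GTPases but overlap it for the type I style genes, and the 3 muscle libraries spread from -0.23 to 0.44 for the latter.

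In direct comparisons between injured tissues, bone exceeded skin in 10 members and fell below it in 0, against 8.11% of all genes called in either direction (3.56% higher, 4.55% lower). These were Tgtp1 (14.9-fold higher in bone, adjusted p = 0.0117), Iigp1 (4.62-fold), Tgtp2 (4.28-fold), Usp18 (3.28-fold), Oas3 (3.26-fold), Ifit1 (2.84-fold), Irgm1 (2.62-fold), Ifi47 (2.08-fold), Ddx58 (1.87-fold) and Parp14 (1.76-fold). Muscle exceeded skin in 6 members and fell below it in 0, against 1.31% of all genes (0.621% higher): Iigp1 (7.00-fold, adjusted p = 0.00345), Tgtp2 (4.92-fold), Oas3 (3.65-fold), Ifit1 (3.59-fold), Irgm1 (2.81-fold) and Ifi47 (2.15-fold). With muscle replicate 2 left out, 11 passed. Both comparisons rest also on the difference between spleen styles, and of their calls those of Iigp1, Irgm1 and Tgtp2 in each, and of Tgtp1 and Ddx58 in bone, held under every alternative. The call of Ifi47 ended in bone without spleen replicate 6 or skin replicate 3 and in muscle without any of 11 single libraries. Both Ifi47 calls also ended without the style term and in 1 fit over all libraries (adjusted p = 0.413 in bone and 0.597 in muscle). In CPM its muscle libraries (108, 56.5 and 89) overlapped those of skin (62.5, 56.9 and 49.1). In that 1 fit the calls of Ifit1 in both comparisons and of Usp18 in bone ended too. The calls of Oas3, Ifit1 and Ifi47 ended in both comparisons without spleen replicates 1 and 2 together, as did that of Usp18 in bone. The call of Usp18 also ended without spleen replicate 1, 2, 4 or 5, bone replicate c or skin replicate 3, and that of Parp14 without any of 11 single libraries.

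Heart exceeded skin in 4 members and fell below it in 0, against 2.38% of all genes (1.49% higher): Tgtp1 (10.9-fold), Tgtp2 (3.70-fold), Rsad2 (2.83-fold) and Xaf1 (2.18-fold). The call of Tgtp2 (adjusted p = 0.00166) held under every alternative, while the number of members called ran from 1 without skin replicate 3 and 2 without skin replicate 1 or heart replicate 2 to 7 without spleen replicate 6, muscle replicate 2 or heart replicate 1 and 8 without muscle replicate 1. Against bone, heart was higher in Xaf1 (2.02-fold), Gbp3 (1.68-fold) and Igtp (1.51-fold) and lower in Irf9 (1.65-fold) and Parp14 (1.61-fold), against 6.68% of all genes (4.02% higher, 2.66% lower). None of these 5 calls held under every alternative, and 0 were left without bone replicate b, and 2 without bone replicate 1 or c or heart replicate 2 or 3. Xaf1, which promotes cell death, held 34.6, 49.7 and 42.5 CPM in heart, 19.4, 20.7 and 26.6 in bone and 13.1, 21.1 and 16.2 in skin, with heart above both and no overlap. Bone and muscle differed in 1 member, Igtp, which was 1.48-fold lower (log2 fold change -0.57, SE 0.15, adjusted p = 0.0298) in bone, against 4.86% of all genes (2.57% higher, 2.29% lower), and this count was 0 without any 1 bone library or muscle replicate 1, 2 without spleen replicate 2 or 4, and 3 without spleen replicate 3 or muscle replicate 2. Heart and muscle differed in 0 of 43 by edgeR, against 0.452% of all genes (0.358% higher, 0.0942% lower). An unadjusted edgeR p below 0.05 was found for 6 of 43 members and 1551 of all 15926 genes. DESeq2 called 1 member and 211 genes.

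In the RNA of these sorted Tregs the ligands themselves were scarce or absent, and ligands made by other cells were not measured. Of 14 interferon genes listed, 1, Ifng, passed the filter on low counts. Ifng held 2.25, 8.53 and 13.2 CPM in spleen, 7.91, 4.67 and 9.39 in bone, 12, 6.92 and 19.2 in heart, 2.77, 2.15 and 2.42 in skin and 18.2, 8.68 and 10.3 in muscle, and passed in no tissue. Skin held the least, at the bottom of the spleen range. Ifnb1 and Ifna4 had 0 counts in all 18 libraries, which allows up to 3 counts over all of them, or 0.0134 CPM.

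Ifngr1 and Ifnar1 were higher in all 4 tissues, while Ifnar2 was lower in muscle and skin. Ifngr1, the ligand-binding chain for interferon gamma, held 199, 204 and 225 CPM in spleen, 992, 816 and 949 in bone, 1207, 1382 and 902 in heart, 843, 988 and 932 in skin and 999, 1090.2 and 1023 in muscle. Every tissue library lay far above every spleen library. Ifngr1 was higher by 4.43-fold, 5.01-fold, 4.29-fold and 5.60-fold (in bone, muscle, skin and heart, the order kept for all folds given as 4 values; adjusted p = 1.23e-10, 1.11e-11, 2.16e-11 and 7.3e-08). Ifngr2, the second chain, passed in no tissue. Ifnar1 was also higher in all 4 tissues (1.65-fold, 2.22-fold, 1.68-fold and 1.94-fold in the same order), while Ifnar2 was 1.55-fold lower in muscle and 1.78-fold lower in skin. These receptor calls held under every alternative.

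Of 12 receptor and signalling genes tested, 4 were higher and 1 lower in bone, 5 and 2 in muscle, 5 and 1 in skin and 4 and 1 in heart. Over all genes, which these and the list counts below are read against, the higher and lower shares were 8.48% and 6.32% in bone, 14.2% and 11.3% in muscle, 15% and 12.8% in skin and 11.8% and 8.46% in heart. Jak2, the kinase bound to Ifngr2, held 137, 201 and 281 CPM in spleen, 841, 741 and 303 in heart, 355, 524 and 560.5 in skin and 576, 479 and 489.9 in muscle, and was 3.16-fold higher in heart, 2.95-fold in skin and 2.14-fold in muscle, calls that held under every alternative. Irf5 was higher in all 4 tissues, by 2.63-fold, 3.23-fold, 1.98-fold and 1.97-fold.

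**Figure D5:**
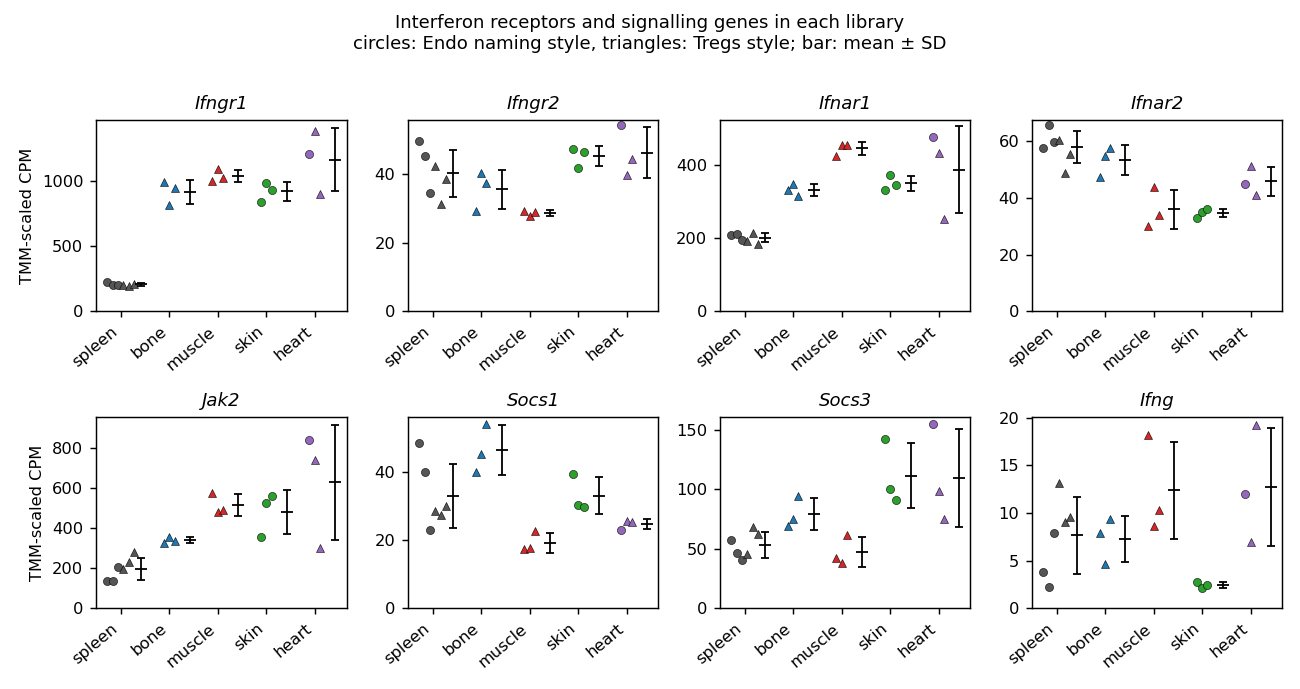
Level of 8 genes of interferon signalling in each library (TMM-scaled CPM, axes from 0), with circles for the Endo and triangles for the Tregs naming style and the mean ± SD. Ifngr1 and Ifnar1 lie above spleen in every tissue library, Ifnar2 lies below it in muscle and skin, and Ifng is lowest in skin.

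Among 10 inhibitors of the pathway, 2 were higher and 1 lower in bone, 1 and 2 in muscle, 3 and 2 in skin and 3 and 3 in heart. The muscle counts lay near the shares of all genes (14.2% higher, 11.3% lower). Those shares were 8.48% and 6.32% in bone, 15% and 12.8% in skin and 11.8% and 8.46% in heart. Cish, a target of Stat5 that restrains cytokine receptors, was higher in all 4 tissues (1.84-fold, 1.95-fold, 2.30-fold and 2.32-fold), and Ptpn6, a phosphatase, was lower in all 4 (1.80-fold, 2.16-fold, 1.62-fold and 2.16-fold). Socs1, the main inhibitor of Jak2 downstream of interferon gamma, was 1.59-fold higher in bone and 1.52-fold lower in muscle (adjusted p = 0.04 and 0.049). Those calls ended without spleen replicate 4, 5 or 6 or bone replicate b or c, and without any of 12 single libraries. Socs3 was 2.28-fold higher in skin and 2.02-fold higher in heart, where the call ended without heart replicate 1.

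Of 12 sensors of nucleic acid and their adaptors tested, 0 were higher and 1 lower in bone, 2 and 2 in muscle, 1 and 3 in skin and 1 and 2 in heart. The bone and muscle counts lay near the shares of all genes (6.32% lower in bone, 14.2% higher and 11.3% lower in muscle). Tlr7, which senses single-stranded RNA and is abundant in B cells, was lower in all 4 (1.90-fold, 3.69-fold, 1.94-fold and 3.47-fold), and the skin call ended without spleen replicates 1 and 2 together. Mb21d1 (cGAS), the sensor of cytosolic DNA, was 4.64-fold higher in skin and 1.95-fold higher in muscle, where the call ended without spleen replicate 4 or 6 or muscle replicate 1 or 2.

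Of 8 other interferon-induced GTPases tested, 2 were lower in bone, 2 in muscle, 3 in heart and 6 in skin, and 0 were higher in any, with median log2 fold changes of -0.63, -0.60, -0.79 and -1.96. Over all genes the lower shares were 6.32%, 11.3%, 8.46% and 12.8% in the same order. Gm12185, the gene whose promoter shares the paired elements, was 3.37-fold, 3.81-fold, 6.11-fold and 4.68-fold lower in bone, muscle, skin and heart, and in bone the call ended without spleen replicate 6 or bone replicate 1 or b. Gbp10 was 9.23-fold lower in skin, 2.55-fold in bone and 2.54-fold in heart, where bone ended without spleen replicate 5 or bone replicate 1.

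Of up to 59 further interferon-stimulated genes tested, which include the member Ifit3b, 6 were higher and 6 lower in bone, 10 and 11 in muscle, 9 and 29 in skin and 7 and 15 of 57 in heart. In bone these counts lay near the shares of all genes (8.48% higher, 6.32% lower), beside 14.2% and 11.3% in muscle, 15% and 12.8% in skin and 11.8% and 8.46% in heart. Their medians were -0.07, 0.07, -0.62 and -0.15. Slfn1, a schlafen linked to T cell quiescence, was lower in all 4 (1.80-fold, 2.30-fold, 7.28-fold and 3.33-fold), calls that held under every alternative. Trim12a was lower in muscle, skin and heart (2.19-fold, 3.98-fold and 1.47-fold), as was Parp11 (2.40-fold, 3.93-fold and 2.87-fold).

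Interferon gamma raises antigen presentation in most cells. Of 20 genes of that process, 2 were higher and 1 lower in bone, 8 and 1 in muscle, 1 and 5 in skin and 3 and 0 in heart. In bone these counts lay near the shares of all genes (8.48% higher, 6.32% lower). Those shares were 14.2% and 11.3% in muscle, 15% and 12.8% in skin and 11.8% and 8.46% in heart. Cd274 (PD-L1) was higher in all 4 tissues (1.37-fold, 2.38-fold, 2.42-fold and 2.13-fold), though in bone not without spleen replicate 4 or 5 or bone replicate 1 or c. H2-Q6, a class I molecule, was higher in bone, muscle and heart (1.45-fold, 1.76-fold and 1.51-fold), with calls that ended in bone without spleen replicate 6 or bone replicate b and in heart without spleen replicate 6 or heart replicate 1 or 2. Nlrc5, the activator of class I genes, was 2.22-fold lower in skin. Psmb10, an immunoproteasome subunit, was lower in bone, muscle and skin (1.47-fold, 1.59-fold and 2.27-fold), of which the bone call ended without any of 11 single libraries the muscle call without spleen replicate 5 or muscle replicate 2, and the skin call without spleen replicates 1 and 2 together (adjusted p = 0.0558). Of the 10 B cell markers, 2 were lower in bone, 3 in heart, 9 in skin and 10 in muscle.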

How the data were processed

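RNA of sorted Tregs had been extracted with the RNeasy Plus Micro kit and made into libraries with the Ovation Solo kit, per the labels' protocols. The authors deposited raw counts per gene in 2 tables, 1 with bone, muscle, skin and spleen and 1 with heart and the same 6 spleen columns. Reads were processed with STAR, featureCounts and limma on GRCm38, per the submitters' processing notes. The annotation release, the strand setting and the treatment of reads that match several genes were not given in any source used here, so that genes with antisense partners (among members Ifi35, Usp18, Dhx58, Irf1, Oasl1, Irf7 and Ifi47) and near-identical genes are uncertain.

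Counts were fitted with edgeR 4.0.16 (R 4.3.3): filterByExpr by group, TMM scaling, a quasi-likelihood F test on group and naming style, and Benjamini-Hochberg adjustment over all genes tested, with an adjusted p below 0.05 called. The fits used the 15 libraries of the first table, the 9 of the heart table, and all 18 for heart against other injured tissues. SE is the log2 fold change divided by the square root of F. The method was tested on simulated data. Alternatives were other scalings and filters, limma-voom (limma 3.58.1), DESeq2 1.42.0, other models, and leaving out each library. Over genes with at least 20 counts, chi-square per degree of freedom between libraries of a group was 10.9 to 157, so that none were the same library. Total counts per library, and with them the precision of low genes, differed up to the range given in the report. 2 bone columns carry no replicate number and are called b and c.

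The 43 members and the gene lists were chosen with earlier results of these data known. 1 gene of the signalling list is not reported here and was left out of its counts. By rule, all statistics could be given for the 4 members with the highest mean level in each class and up to 4 of each class with the largest change in each comparison. Not all were printed for each of these, as for Gbp7, Trim30a, Irf1 and Parp14. Ifnar1, Trim12a and further values of listed pathway genes outside that rule were chosen after they were seen. Promoter windows came from RefSeq (GRCm38.p6), and transcript stretches of 50 bases were compared between all annotated genes.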

Additional observations from a re-analysis of the deposited data

Results flagged for a closer look

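Among the 6 spleen libraries, Samhd1 was lowest in replicate 2, at 879 CPM, by a gap to the next library that passed Dixon's test at the 95% level. This was 1 of 43 members tested, where chance gives about 1 in 20.

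The other results concern differences between injured tissues, each tested as a contrast in edgeR's fit, and given as log2 fold changes. Bone was above skin in Tgtp1 (3.89), Iigp1 (2.21), Tgtp2 (2.10), Usp18 (1.71), Oas3 (1.71), Ifit1 (1.51), Irgm1 (1.39), Ifi47 (1.06), Ddx58 (0.90) and Parp14 (0.82). Muscle was above skin in Iigp1 (2.81), Tgtp2 (2.30), Oas3 (1.87), Ifit1 (1.84), Irgm1 (1.49) and Ifi47 (1.11). Heart was above skin in Tgtp1 (3.45), Tgtp2 (1.89), Rsad2 (1.50) and Xaf1 (1.12). Heart was above bone in Xaf1 (1.02), Gbp3 (0.75) and Igtp (0.59) and below it in Irf9 (-0.73) and Parp14 (-0.69), and bone was below muscle in Igtp (-0.57).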

How the results depend on the processing

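Of 88 calls of a member in a comparison, 41 held under every alternative, 47 were lost under at least 1 and 0 reversed. Counts that moved by over 1.5 times follow, members first and all genes second. Bone against muscle (1 and 759) gave 0 and 432 without the style term, 2 members with same-style spleen, 3 and 1270 with DESeq2, 2 members with limma-voom, 7 and 1191 without a filter, 0 and 493 in 1 fit over all libraries, and 3 members without spleen replicates 1 and 2. Bone against skin (10 and 1267) gave 18 and 2814 without the style term, 843 genes with limma-voom, and 6 and 705 without spleen replicates 1 and 2. Muscle against skin (6 and 205) gave 19 and 749 without the style term, 12 and 427 with DESeq2, 75 genes with limma-voom, 17 and 618 without a filter, 115 genes in 1 fit, and 126 without spleen replicates 1 and 2. Heart against bone gave 1630 genes with DESeq2 (1064). Heart against muscle (0 and 72) gave 1 and 211 with DESeq2 and 1 and 380 without a filter. Heart against skin (4 and 379) gave 17 and 742 without the style term, 12 and 672 with DESeq2, 1 and 180 with limma-voom, 16 and 909 without a filter, and 7 and 638 without spleen replicates 1 and 2. The spleen styles (1 and 741) gave 2 members with upper-quartile scaling, 2 and 1245 with DESeq2, 2 and 1344 without a filter, 131 genes in 1 fit, and 0 and 47 without spleen replicates 1 and 2. Skin against spleen gave 2548 of 4342 genes without those libraries, and bone 1 of 2 type I style genes with Ifi47 among the GTPases. The cause was not tested. Against spleen, single calls also ended without spleen replicates 1 and 2 (Irgm2, Gbp3, Irf9, Rtp4, Ifit3, Oasl1 and Oasl2 in skin, Irgm2 and Oasl1 in heart, Ifit3b in muscle), with limma-voom (Ifit3b in muscle, and Ifit3, Gbp6, Oasl1 and Oasl2 in skin), without a filter (Irgm2 and Samhd1 in heart), with upper-quartile scaling (Cmpk2 in muscle, Rsad2 in heart) or in 1 fit (Cmpk2 and Ifit3b in muscle, Oasl2 in skin).

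With 1 library left out, type I style genes, GTPases and all genes called ran from 1 to 3, 3 to 7 and 1784 to 2604 in bone, 3 to 8, 3 to 6 and 3257 to 4257 in muscle, 11 to 17, 9 to 11 and 3368 to 4543 in skin, and 3 to 7, 5 to 7 and 2241 to 2894 in heart. Members and all genes called ran from 0 to 3 and 256 to 1040 for bone against muscle, 7 to 10 and 777 to 1705 for bone against skin, 5 to 11 and 101 to 528 for muscle against skin, 0 to 6 and 429 to 1200 for heart against bone, 0 to 0 and 27 to 104 for heart against muscle, 1 to 8 and 205 to 522 for heart against skin, and 0 to 3 and 134 to 2016 for the styles.

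Replicate numbers did not pair libraries: deviations correlated by -0.16 to 0.20, over 0.1 in 2 of 18 pairs. With the replicate number as a block, muscle against skin gave 21 members and 1132 genes, and 11 member calls were lost: Tgtp1 (adjusted p = 0.0823), Cmpk2 and Ifit3b in muscle, Gbp6 and Rtp4 in skin, Gbp2 (0.17), Gbp9, Parp14, Samhd1 and Oasl1 in heart, and Ifi47 in muscle against skin. The heart call of H2-Q6 was lost too. The block was not fitted for bone, where 2 columns carry no number. It took the place of the style term. Replicate numbers found only in spleen add nothing to a difference taken within blocks, so muscle and heart were set against Endo spleen libraries. Muscle against skin was likewise not adjusted for style, and merely leaving out the style term gave 19 members and 749 genes. Gains and losses under the block therefore cannot be ascribed to pairing apart from style. Upper-quartile scaling moved the median of all genes to -0.17 in skin and -0.12 in heart. Members at few counts, such as Ifi44, Oasl1 and Tgtp1 in skin, are limited by depth.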
